A study of Mus musculus with 2 samples.

Results

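The distal ends of the mouse autosomes were examined for regions enriched in macroH2A1.1, and they differed widely among themselves. Regions of the distal end were those on chromosomes 1 to 19 whose start lay within the last 5 Mb before the highest region end of their chromosome. This rule selected 2335 of 50887 regions in the list, which was 4.59%. They were compared with the 45327 regions of the same autosomes that started from 8 Mb on and outside the distal window. The 1385 autosomal regions in the first 8 Mb and the 1840 regions on chromosome X were not compared.

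The regions come from chromatin immunoprecipitation followed by sequencing (ChIP-seq) in C2C12, an established mouse myoblast line that forms myotubes after a change to medium with little serum. The ChIP group was 1 library of wild-type C2C12 cells made with an antibody against macroH2A1.1, and the input group was 1 library of wild-type C2C12 chromatin without antibody. The labels name myoblast as the source of both, although their short descriptions contain DM, the abbreviation for differentiation medium, and the study describes this profile as one of myotubes. The stage of the cells therefore cannot be settled from the labels. Since each group held 1 library, there is no replicate error for any value, no difference was tested, and regions or chromosomes do not take the place of replicates.

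The histone variant macroH2A1 replaces canonical H2A in part of the nucleosomes and carries a large macrodomain, and macroH2A1.1 is 1 of its splice forms. The macrodomain of this isoform can bind ADP-ribose and its polymers. MacroH2A typically occupies broad stretches of chromatin with low focal enrichment, and much of it lies in transcriptionally repressed chromatin. Mouse autosomes have their centromere close to the start of the numbered sequence, so that the end with the highest coordinates is the distal one, next to the telomere. Short reads cannot be placed uniquely in the telomere repeat itself, and the regions described here lie in the mappable sequence before it.

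Whether the rule reached the chromosome ends was checked as far as the references allowed. Positions are given 1-based in the mouse build mm9, and an mm9 genome or annotation was not used here. In GRCm38, a later build, chromosome lengths differ, and no coordinate was converted. The last region ended past the GRCm38 chromosome length on 5 autosomes, by up to 7.08 Mb on chromosome 7, and before it on the other 14. On chromosome 17 the last region ended at 92261800, which was 2.73 Mb short of the GRCm38 length. The next largest shortfall was 1.54 Mb, on chromosome 10. On chromosome 17 the window may therefore begin and end farther from the telomere than on the other autosomes.

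Over all 19 ends, macroH2A1.1 regions were somewhat denser than in the rest of the autosomes, but their covered share was not higher than that of the neighbouring 5 Mb on most autosomes. The distal windows, 95 Mb in total, held 24.6 regions per Mb, and the rest of the autosomes held 20.4. Regions covered 10.8% of the distal windows and 9.25% of the rest. The direction was not shared by all autosomes. The covered share was higher in the distal end on 11 autosomes and lower on 8, with a median ratio of distal to remaining share of 1.12. The number of regions per Mb was likewise higher on 11 and lower on 8, with a median ratio of 1.41. Against the neighbouring 5 Mb alone, the covered share was higher in the distal end on 9 of the 19, with a median ratio of 0.919, and the number of regions per Mb on 10, with a median ratio of 1.06.

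The spread between ends was the larger feature. The ratio of covered shares ran from 0.0882 on chromosome 18 to 2.90 on chromosome 7. Distal covered shares ran from 0.84% to 22.1%, a 26.2-fold range, whereas those of the rest ran from 2.58% to 19.8%, a 7.65-fold range. The coefficient of variation over autosomes was 59.0% for the distal ends and 35.3% for the rest. The distal windows, at 5 Mb each, are much shorter than the parts they were compared with. The neighbouring windows of 5 Mb also spread widely, from 2.02% on chromosome 14 to 29.96% on chromosome 15. A wide spread was thus not particular to the ends, and the part of window length in it was not tested.

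**Figure D1:**
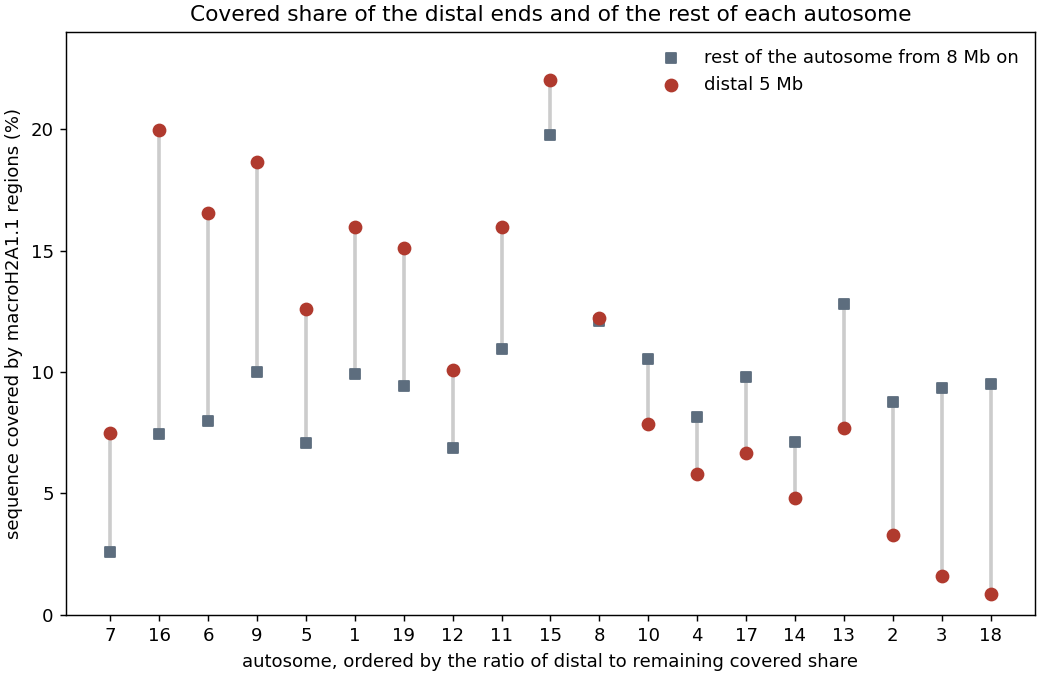
Share of sequence covered by macroH2A1.1 regions (vertical axis, percent) in the distal 5 Mb (circles) and in the rest of the same autosome from 8 Mb on (squares), for the 19 autosomes ordered by the ratio of both shares. Circles lie above squares on 11 autosomes, from chromosome 7 to chromosome 8, and below them on 8, with the widest relative drop on chromosome 18. There is 1 ChIP and 1 input library, and no error bar between replicates can be drawn.

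The ends with the highest ratios were those of chromosomes 7, 16 and 6. Chromosome 7 is sparsely covered along its length, at 2.58%, and its distal end held 98 regions that covered 7.49%. On chromosome 16 the distal end held 193 regions with a covered share of 19.96%, against 7.46% of the rest. On chromosome 6 it held 197 regions with 16.6%, against 7.97%. Chromosomes 7 and 16 thus had a similar ratio from very different levels.

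A ratio above 1.5 was also found on chromosomes 1, 5, 9 and 19. Chromosome 9 had the most distal regions of all autosomes, 206, and they covered 18.7% of the window against 10.0% of the rest. Chromosome 1 had 182 regions and a covered share of 15.98% against 9.90%. On chromosome 5 there were 165 regions, with 12.6% against 7.08%, and on chromosome 19 there were 168, with 15.1% against 9.43%. The 7 autosomes with a ratio above 1.5 carried 1209 of the distal regions, or 51.8% of them.

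Chromosomes 8, 11, 12 and 15 had ratios between 1 and 1.5. Chromosome 15 had the most covered end of all, at 22.1% from 183 regions, but the rest of this chromosome was covered almost as densely, at 19.8%. Chromosome 11 had 173 distal regions and 15.96% against 11.0%, and chromosome 12 had 112 and 10.1% against 6.89%. On chromosome 8 the end held 167 regions, and its covered share of 12.2% was close to the 12.1% of the rest. That closeness depends on a densely read segment of chromosome 8 between 80 and 100 Mb. Outside that segment the rest was covered at 6.82%, and the ratio became 1.79.

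At the other extreme, the distal end of chromosome 18 held 14 regions and that of chromosome 3 held 22. They covered 0.84% and 1.62% of their windows, against 9.52% and 9.34% of the rest. On chromosome 2 the 45 distal regions covered 3.30%, against 8.77%. The remaining parts of these chromosomes were covered close to the median of 9.43%.

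The other ends with ratios below 1 were those of chromosomes 4, 10, 13, 14 and 17. Chromosome 13 had 101 distal regions and a covered share of 7.68% against 12.8%. On chromosome 10 there were 112, with 7.86% against 10.5%, and on chromosome 4 there were 64, with 5.80% against 8.14%. Chromosome 14 had 68 regions and 4.80% against 7.10%, and chromosome 17, whose window is the uncertain one, had 65 and 6.68% against 9.79%. The covered share of a distal end followed that of the rest of its chromosome only loosely. Across the 19 autosomes Pearson's r was 0.361 and Spearman's rho 0.244, and without chromosomes 8 and 15 they were 0.0443 and 0.0956. These coefficients are a description of points that share 1 ChIP and 1 input library.

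Within the windows the regions were gathered in clusters, with empty stretches between them. Each distal end was divided into 5 windows of 1 Mb, counted back from the last region end, which gave 95 windows. A window held a median of 21 regions, with quartiles of 8 and 36 and a maximum of 79. In the same division of the rest, the median was 14, with quartiles of 2 and 32. No region started in 10 of the 95 distal windows (10.5%), and in 419 of the 2209 remaining ones (18.97%). Near the ends this contrast was not seen. At each distance between 5 and 10 Mb from the end, 1 to 3 of the 19 windows were empty, against 0 to 4 within the distal 5 Mb. Windows with 20 regions or more made up 55.8% of the distal and 43.0% of the remaining windows. The first window of every end holds at least 1 region by the way the end is defined.

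The most covered distal window lay on chromosome 16 between 4 and 5 Mb from the end, from 93000801 to 94000800, and its 73 regions covered 445.6 kb. The window at the same distance on chromosome 19, from 55960601 to 56960600, came next with 79 regions and 387.6 kb. The third was on chromosome 15 between 2 and 3 Mb from the end, from 100384201 to 101384200, with 54 regions and 378.8 kb. The first and the second of these lie at the inner border of the distal part. More than 30% of the sequence was covered in 5 distal windows (5.26%) and in 128 of the remaining windows (5.79%).

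The low ends were low in different ways. On chromosome 18 all 14 regions lay within the last 1.14 Mb, and the 3.86 Mb before them, from 85075801 to 88939200, held none. On chromosome 2 all 45 regions lay within the last 1.84 Mb, after 3.16 Mb without a region. On chromosome 17 the reverse was seen. There, 4 of 65 regions started in the last 2 Mb, and a stretch of 1.93 Mb from 89053001 to 90983400 was empty. On chromosome 3 the regions were spread thinly over the window, with a longest empty stretch of 1.51 Mb.

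A stretch of more than 1 Mb without a region was present in 7 of the 19 ends. Stretches were measured in the distal windows alone, so this count cannot be set against other parts of the autosomes. The median of the longest stretch over ends was 0.762 Mb, and the shortest was that of chromosome 15, at 242.2 kb. Position within the window also differed among the ends with a ratio of covered shares above 1.5. On chromosome 7, 78 of 98 regions started in the last 2 Mb, and 48 of these in the last 1 Mb. On chromosome 19, only 31 of 168 started in the last 2 Mb. The map of regions by distance from the end shows both arrangements.

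Coverage showed no gradient toward the end when all autosomes were pooled. The mean covered share was 10.9% in the last 1 Mb, 10.5% between 1 and 2 Mb, 10.4% between 2 and 3 Mb, 10.6% between 3 and 4 Mb and 11.7% between 4 and 5 Mb. Over the following 5 windows it lay between 8.77% and 11.99%, and it was 13.4% between 12 and 13 Mb. The median enrichment of regions over input lay between 2.19-fold and 2.39-fold within the distal 5 windows and between 2.08-fold and 2.19-fold in the next 5, while between 10 and 15 Mb it lay between 2.15-fold and 2.25-fold. The limit of 5 Mb did not coincide with a step in the number of regions, which was 476 in the window just inside it and 477 in the window just outside.

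The regions nearest to the limit on either side were also looked at 1 by 1. They started 1136.6 to 4998.8 kb from the end inside it and 5000.8 to 7347.2 kb outside it. Some therefore lay far from the limit. The innermost distal region of each autosome had a median width of 3400 bp, a range from 2000 to 13400 bp and a median enrichment of 1.79-fold. The first region outside had a median width of 4400 bp, a range from 1600 to 18200 bp and a median enrichment of 2.34-fold. On 4 autosomes the region outside reached across the limit into the distal window, and it was counted with the rest by its start.

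**Figure D2:**
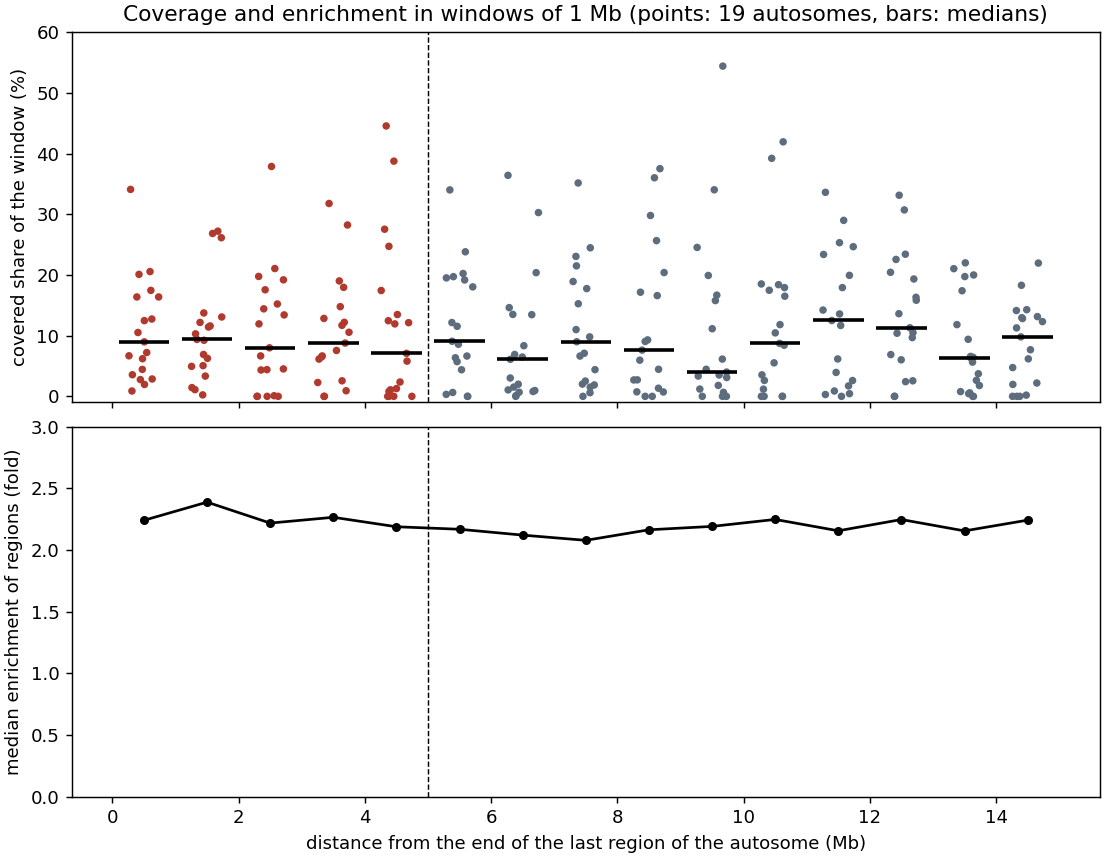
Upper panel, covered share of each 1 Mb window (vertical axis, percent) by distance from the end of the last region (horizontal axis, Mb), with 1 point for each of the 19 autosomes, jittered sideways, and bars at the medians. Lower panel, median enrichment over input of the regions starting in each window (fold). Red points are distal windows. Single autosomes range from 0% to 44.6% within the distal part, and the median enrichment lies between 2.08-fold at 7 to 8 Mb and 2.39-fold at 1 to 2 Mb.

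In width, single distal regions resembled the others. Their median width was 3400 bp, with quartiles of 2400 and 5200 bp, and that of the rest was 3600 bp, with quartiles of 2600 and 5200 bp. By autosome the median width was higher in the distal end on 6, lower on 8 and equal on 5. It ranged from 2900 bp on chromosome 18 to 4000 bp on chromosomes 15, 16 and 17. Widths are multiples of the 200 bp step of the list, so equal medians are frequent. The median gap between neighbouring regions was 5600 bp in the distal ends and 5400 bp in the rest.

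Wide domains were present but not frequent. A width of 10 kb or more was reached by 132 distal regions (5.65%), against 5.77% of all autosomal regions, and 20 kb or more by 13 (0.557%), against 0.846%. The widest distal region, at 93535601 to 93579800 on chromosome 16, spanned 44.2 kb and held 373 input reads besides 1515 ChIP reads. Its enrichment, the ratio of ChIP to input reads after scaling by the library factor of 1.45, was 2.80-fold (95% exact interval 2.50 to 3.15). Intervals here are Clopper-Pearson intervals and cover counting error only, since reads copied by PCR are not independent.

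The next widest lay on chromosome 15, with 40.8 kb each. The region from 102581001 to 102621800 was enriched 2.58-fold (2.30 to 2.90), from 1383 ChIP and 370 input reads. The region from 100909401 to 100950200 had 1303 ChIP reads but 515 input reads, and was enriched 1.75-fold (1.57 to 1.94). Equal widths on the same end thus came with enrichments whose intervals did not overlap.

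A region of 40.4 kb on chromosome 9, from 121797601 to 121838000, held 1178 ChIP and 300 input reads and was enriched 2.71-fold (2.38 to 3.08). The fifth, of 33.2 kb, was on chromosome 4 from 151508601 to 151541800. It held 890 ChIP and 526 input reads, and its enrichment of 1.17-fold (1.047 to 1.302) was the weakest of the 5. This region had 15.8 input reads per kb, against 6.92 in the rest of chromosome 4. The part of the input density in this call was not tested.

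The strength of enrichment was also close to that of the rest. Summed over all distal regions, 223135 ChIP reads and 71591 input reads gave a ratio of 2.15-fold (2.13 to 2.17, 95% exact), and the rest gave 2.12-fold (2.118 to 2.126). The median enrichment of single regions was 2.27-fold in the distal ends, with quartiles of 1.76-fold and 2.99-fold, and 2.21-fold in the rest, with quartiles of 1.75-fold and 2.86-fold. By autosome the median was higher in the distal end on 11 and lower on 8, with ratios from 0.840 on chromosome 13 to 1.37 on chromosome 8. The summed enrichment went the other way, higher in the distal end on 8 and lower on 11, with a median ratio of 0.991.

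Of the distal regions 1467 (62.8%) were enriched 2-fold or more, against 61.2% of all autosomal regions. Below 1.5-fold there were 269 (11.5%), against 11.4%. Both shares were close to the background. At 4-fold or more there were 238 distal regions (10.2%), against 8.31% of all autosomal regions. Without chromosomes 7 and 8, the share at 4-fold or more was 8.502% in the distal ends and 7.96% in the rest. The share at 2-fold or more was then lower in the distal ends, at 60.3% against 61.4%. Below 1.5-fold it was 12.3% against 10.9%.

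The 5 most enriched distal regions lay on 4 autosomes. The strongest, leaving aside those with 3 input reads or fewer, was at 150335801 to 150339600 on chromosome 7, where 72 ChIP and 4 input reads gave 12.4-fold (4.64 to 46.8). The next was on chromosome 19 from 56561001 to 56563200, with 67 and 5 reads and 9.24-fold (3.77 to 29.4). It was followed by a region on chromosome 1 from 195197201 to 195201800, with 148 and 12 reads and 8.51-fold (4.73 to 16.8). The latter had the narrowest interval of the 5, as the one with the most reads.

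The others were enriched 8.10-fold (2.96 to 31.0) on chromosome 12 from 120012801 to 120014800 and 8.001-fold (3.24 to 25.6) on chromosome 7 from 148474001 to 148477200. Their widths ranged from 2000 to 4600 bp, and the intervals of all 5 overlapped, so that their order was not resolved. Of all distal regions 2076 (88.9%) also had an FDR up to 0.05 by the binomial distribution of their ChIP and input reads, which compares these 2 libraries and not conditions, against 89.2% of all autosomal regions. There were 1 to 3 input reads in 21 of the 2335 distal regions, and 3 or fewer in 388 of all 49047 autosomal regions.

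The last region of each autosome, the one that defines the end, was looked at separately. The enrichment of these 19 regions had a median of 1.83-fold, against 2.27-fold over all distal regions. It ranged from 1.32-fold on chromosome 14 to 4.83-fold on chromosomes 7 and 17. These regions held 27 to 114 ChIP reads and 6 to 43 input reads. The lower limit of the exact interval exceeded 1 in 13 of the 19. On chromosome 1, the last region lay from 196748201 to 196752200, with 79 and 37 reads, and on chromosome 19 from 60956601 to 60960600, with 69 and 29.

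In 2 of these terminal regions the reads were packed into very little sequence. The last region of chromosome 9, from 123782201 to 123782400, was 1 step of 200 bp with 34 ChIP and 6 input reads, which is 30.0 input reads per kb, against 6.59 over all distal regions of this chromosome. The last region of chromosome 13, from 120284001 to 120284400, held 27 and 11 reads in 400 bp, which is 27.5 input reads per kb, against 6.98. Both libraries were dense at these sites.

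Read densities within regions were then compared, because the number of reads sets what a caller can detect. They cover called regions only and cannot show how many reads lay where no region was called. Distal regions had 21.7 ChIP reads and 6.98 input reads per kb, and the remaining regions had 21.5 and 6.99. The pooled values of the rest, here and for summed enrichment, include the densely read segment of chromosome 8. ChIP reads per kb were higher in the distal end on 10 autosomes and lower on 9, and the same counts were found for input reads per kb. For input reads, the ratio was within 10% of 1 on 15 of the 19. The 95% exact Poisson intervals of distal and remaining input density did not overlap on 7 autosomes (36.8%). Of these, 5 were higher in the distal end and 2 were lower.

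The largest shift was on chromosome 8. Its distal regions had 5.38 input reads per kb (5.201 to 5.57), and the remaining ones had 9.57, or 6.69 outside the densely read segment. ChIP reads per kb were 20.6, against 24.9, or 20.55 outside the segment. The summed enrichment of this end was 2.64-fold (2.54 to 2.75), against 1.80-fold (1.78 to 1.81) in the rest and 2.12-fold (2.10 to 2.14) outside the segment. The distal end of chromosome 8 thus stood above the rest of its chromosome with and without the segment, in a part with fewer input reads per kb.

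Chromosomes 4, 9, 11, 13 and 15 went the other way, with more input reads per kb in the distal end. On chromosome 15 there were 9.52 (9.34 to 9.71), against 8.31. On chromosome 4 there were 8.51 (8.17 to 8.85), against 6.92, and on chromosome 11 there were 8.02 (7.83 to 8.22), against 6.84. On chromosomes 9 and 13 there were 6.59 against 6.29 and 6.98 against 6.54. The summed enrichment was lower in the distal end on 4 of these 5, with intervals that did not overlap. It was 1.73-fold (1.70 to 1.77) against 1.89-fold on chromosome 15, 1.79-fold (1.71 to 1.88) against 2.15-fold on chromosome 4, 1.99-fold (1.93 to 2.04) against 2.16-fold on chromosome 11 and 1.91-fold (1.82 to 1.99) against 2.21-fold on chromosome 13. On chromosome 9 it was 2.28-fold (2.21 to 2.34) against 2.32-fold, with overlapping intervals.

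Enrichment also differed where the intervals of input density overlapped. On chromosome 3 the summed enrichment was 1.88-fold (1.70 to 2.08), against 2.16-fold, with 6.44 and 6.53 input reads per kb. The opposite was seen on chromosome 16, where the distal end reached 2.37-fold (2.30 to 2.43), against 2.12-fold, with 6.70 and 6.77 input reads per kb. There, 23.0 ChIP reads per kb (22.7 to 23.3) stood against 20.8. On chromosome 12 input reads per kb were lower in the distal end beyond their intervals, at 6.22 against 6.51, and the enrichment was 2.36-fold (2.27 to 2.45), against 2.204-fold. The intervals of summed enrichment did not overlap on 8 of 19 autosomes (42.1%), of which 3 were higher in the distal end and 5 were lower. For ChIP reads per kb they did not overlap on 12 (63.2%), with 6 in each direction.

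Across the 19 ends the median enrichment was lower where input reads per kb were higher (Pearson's r = -0.751, Spearman's rho = -0.691). Both values share counts, since the enrichment is divided by input reads. The covered share had a weak relation with input density (r = 0.306, rho = 0.258), which was 0.0805 and 0.157 without chromosomes 8 and 15.

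**Figure D3:**
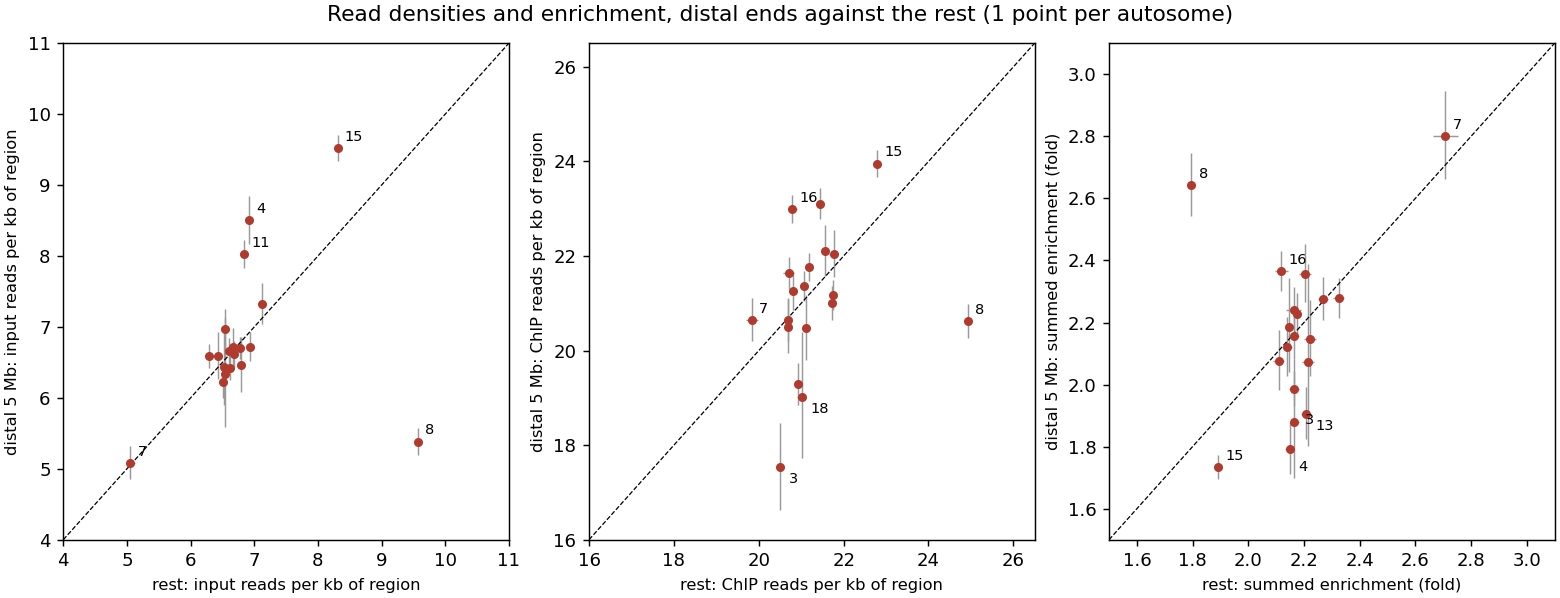
Input reads per kb of region, ChIP reads per kb of region and enrichment from summed reads (fold), each in the distal 5 Mb (vertical axis) against the rest of the same autosome from 8 Mb on (horizontal axis), with 1 point for each of the 19 autosomes. Bars are 95% exact counting intervals, the dashed line marks equal values, and some autosomes are numbered. Chromosome 8 lies far below the line for both read densities and far above it for enrichment, and chromosomes 4, 11 and 15 lie above it for input reads.

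The sequence and gene content of the distal ends was taken from GRCm38, as the last 5 Mb of resolved sequence of each chromosome, and concerns that build alone. Telomere-near sequence is often richer in G and C than the rest of a chromosome. GC content was higher in the distal 5 Mb than in the rest on 14 of 19 autosomes, with medians of 44.1% and 41.8%. Protein-coding genes were denser at the end on 9 of 19, with medians of 8.20 and 7.66 genes per Mb. The covered share of the distal ends in mm9 rose loosely with the GC content of the GRCm38 ends (r = 0.464, rho = 0.404, n = 19). With coding genes per Mb the coefficients were 0.238 and 0.399. They are descriptions, and the windows of both builds do not match base by base.

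The lowest covered ends lay on both sides of this relation. The GRCm38 end of chromosome 18 had a GC content of 37.6% and 9 coding genes, among them Neto1, which encodes an auxiliary subunit of glutamate receptors. That of chromosome 3 had 39.0% and 13 genes, with Rpe65, an enzyme of the visual cycle. In contrast, the end of chromosome 2, with a covered share also under that of the rest, had 46.0% and 81 genes. The genes of this paragraph and the next were picked after the covered shares were known, to show what the ends contain.

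Among the ends covered more than the rest of their chromosome, that of chromosome 15 had 141 coding genes in GRCm38. Of these, 26 were keratin genes (Krt) and 9 were Hoxc genes, which pattern the body axis. The end of chromosome 7, with a covered share of only 7.49%, had 135 coding genes. Among them were the imprinted Igf2, Cdkn1c and Kcnq1, the troponin genes Tnni2 and Tnnt3 of fast skeletal muscle, and 14 olfactory receptor genes (Olfr). The end of chromosome 16 had 41, among them the transcription factor genes Erg and Ets2. A high number of genes did not go with high coverage in every case. The end of chromosome 10 had the most coding genes, 166, of which 60 were olfactory receptor genes. Its covered share of 7.86% was close to that of the chromosome 7 end. No single region was assigned to a gene, because gene positions in mm9 were not used here.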

How the data were processed

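Per the labels, single reads were sequenced on an Illumina instrument, and the submitters' processing notes name mm9 and Bowtie2 2.0.6. According to the study's methods the authors called enriched regions with SICER, and the deposited list is named after epic, its re-implementation. The list holds per region the ChIP and input read counts, not scaled for library size, as the authors' caller counted them, the caller's p-value and FDR, the log2 fold change and a score of 100 times that log2 value. The deposited log2 fold change equals ChIP over input reads divided by 1 library factor of 1.45 in all regions with input reads. The list gives no library totals, and its step of 200 bp and smallest gap of 800 bp differ from the settings in those methods. Its regions hold 4884176 ChIP and 1585463 input reads.

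Regions were assigned by their start. Covered share is summed region length over the 5 Mb window or the remaining length from 8 Mb on. Reads per kb are summed reads over summed region length, with exact Poisson intervals. For enrichment, 95% Clopper-Pearson bounds of ChIP reads among all reads of a region were converted to fold. Exact intervals cover counting error of these 2 libraries only. Named regions were the 5 widest, the 5 most enriched with more than 3 input reads and the last of each autosome, and named autosomes had the 3 highest and 3 lowest ratios. The members, comparisons and alternatives were chosen with earlier results of these data known. The functions were tested on simulated region lists. Computations used Python 3.11.15, numpy 2.4.6, pandas 2.3.3 and scipy 1.17.1. Alternatives were other window sizes, other compared parts, stricter lists, joining, equal input density and fewer chromosomes.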

Additional observations from a re-analysis of the deposited data

How the results depend on the processing

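With 1 library per group nothing could be recomputed without a replicate, and reads per region limit single values: the median distal region had 68 ChIP and 22 input reads. No paired analysis was possible because there is a single library of each kind, and no result comes from a test between samples. Of 91 recomputed counts, of regions or of autosomes higher in the distal end, 86 stayed within 1.5 times the reported count. This limit cannot show a stable direction, since it lets a majority of the 19 autosomes become a minority. In place of 11, the covered share was higher on 9 against the neighbouring 5 Mb, and the median enrichment on 8 with the window of 10 Mb. Leaving out chromosomes does not change the ratios of the others, so those counts could move little. The number of distal regions was 975 with a window of 2 Mb, 4657 with one of 10 Mb, 1467 among regions of 2-fold or more and 847 after joining within 10 kb, as these settings by construction add, remove or merge regions. With the window of 2 Mb, ChIP reads per kb were higher in the distal end on 6 autosomes in place of 10, and the cause was not tested. The covered share stayed above that of the compared part on 6 autosomes and below it on 4 in all alternatives run for them, and 9 changed side in at least 1. The alternative with equal input density could only remove regions from the list, so its unchanged directions carry no weight. Against the neighbouring 5 Mb only, chromosomes 8, 11, 12 and 15 fell below 1, to 0.760, 0.851, 0.919 and 0.736, and chromosomes 10 and 14 rose above it, to 1.32 and 2.37. With the window of 2 Mb the ratio was 0.503 on chromosome 19, 0.957 on chromosome 2, 0.0570 on chromosome 17 and 5.80 on chromosome 7. With the window of 10 Mb it was 1.28 on chromosome 13, 1.09 on chromosome 17 and 0.618 on chromosome 3. Among regions of 2-fold or more it was below 1 on chromosome 15. All 10 regions named as widest or most enriched kept an FDR up to 0.05 in the exact binomial test. Leaving out chromosome 17 and the segment of chromosome 8 were alternatives chosen after seeing the data.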
